A study of Mus musculus with 4 samples.

Results

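The genes described here encode proteins that bring long-chain fatty acids into muscle fibers, activate them, carry them into mitochondria and oxidize them, together with enzymes that set how fast this happens. They were chosen by name, as 35 gene symbols, with earlier results of these data known. Each was represented by the probe set of highest mean among those that the platform annotation gives to that gene alone. Of the 35 genes, 33 had such a probe set, out of 22180 genes so measured on the array. Acsl1, which encodes the main long-chain acyl-CoA synthetase of muscle, and Cpt1b, which encodes the muscle form of carnitine palmitoyltransferase 1, had none and are not analysed here. Plantaris muscle of male mice was taken 10 days after surgery, and each of 4 conditions was measured once, on a Mouse Gene 2.0 ST array (Affymetrix). M-PDK1KO mice carried floxed alleles of Pdpk1 and Cre recombinase driven by the myosin light chain 1f promoter. The animal methods of the study describe control mice as carrying the floxed alleles without Cre. The labels and the microarray methods call them wild type. In the ablated mice of both genotypes the gastrocnemius and soleus had been taken out on both sides, which overloads the plantaris, and the sham-operated mice of both genotypes kept them. Both genotypes were on a C57/BL6 background, and neither the labels nor the methods give the age of the mice used for the arrays or how many mice stand behind an array. Figure legends of the study give an age for mice with the same surgery in other assays. This promoter drives Cre in skeletal muscle fibers, and whole muscle also holds other cells.

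Fatty acids cross the membrane with the help of transport proteins such as CD36 and the FATP family, are bound in the cytosol by fatty acid-binding protein and are joined to coenzyme A by acyl-CoA synthetases. Carnitine palmitoyltransferases then pass the acyl group into the mitochondrial matrix, where β-oxidation shortens it by repeated rounds of dehydrogenation, hydration, dehydrogenation and thiolysis. Malonyl-CoA, made by acetyl-CoA carboxylase and removed by malonyl-CoA decarboxylase, inhibits the entry step, and in oxidative muscle fibers this pathway is a main source of energy at rest and during sustained work.

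Pdpk1, the targeted gene, had log2 values of 6.23 after ablation and 5.96 after sham surgery in M-PDK1KO mice, and of 6.85 after ablation and 6.81 after sham surgery in control mice. It was lower on both M-PDK1KO arrays, and where its probes lie relative to the floxed exons is not known here. All values are on the deposited log2 scale, and the number of arrays limits the precision. Array medians over all probe sets lay between 2.66 and 2.69. Over the 22180 genes analysed the medians were higher after ablation. They were 3.29 after ablation and 3.20 after sham surgery in M-PDK1KO mice, and 3.26 after ablation and 3.17 after sham surgery in control mice. Defining genes of myofibers were among the highest on the array, with Ckm, Acta1 and Myh4 above percentile 99 of all genes by mean value. All 15 myofiber markers listed were measured, and their median response to ablation, log2(ablation/sham), was -0.30 in M-PDK1KO and -0.37 in control mice. They did not move together. By the test described below 7 of the 15 were called lower, 2 higher and 6 not called. Their responses ran from -0.71 to 0.63 in M-PDK1KO and from -0.82 to 0.57 in control mice. Macrophage and fibroblast markers rose, 11 of 12 and 9 of 10 by the test described below, with medians of 2.14 and 2.19 in M-PDK1KO and 2.07 and 2.00 in control mice. Summed on the linear scale, the macrophage markers reached 2587 after ablation and 480.39 after sham surgery in M-PDK1KO mice, and 2502 after ablation and 454.65 after sham surgery in control mice. The fibroblast markers reached 17289 after ablation and 4509 after sham surgery in M-PDK1KO mice, and 16210 after ablation and 4105 after sham surgery in control mice. The myofiber markers summed to 55246 after ablation and 63425 after sham surgery in M-PDK1KO mice, and to 55987 after ablation and 64323 after sham surgery in control mice. No listed erythroid marker had a probe set of its own. The part of these shifts in the results below was not tested. In whole muscle, fewer fibers, less RNA per fiber and a larger share of RNA from other cells cannot be told apart.

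Most of the fatty acid genes fell after ablation, in both genotypes. The median response of the 33 genes was -0.72 in M-PDK1KO and -0.67 in control mice, against -0.02 in each genotype over all 22180 genes. Over both genotypes, limma called 23 of the 33 lower and 3 higher at an adjusted p under 0.05, and 7 did not pass. Of all genes, 10.6% were called lower and 10.4% higher. The fit sets 2 ablation against 2 sham arrays with genotype as a term, so the mean response is tested and not that of either genotype. Each gene has 1 residual degree of freedom, from the distance between its responses in M-PDK1KO and control mice, and limma moderates this with 4.22 prior degrees of freedom estimated over all genes, so most of each error is shared among genes. Both ablation arrays lay below both sham arrays for 26 of the 33 genes, against 30.8% of all genes, and above both for 4, against 26.6%. Taken singly, 11 of the 33 were at most 0.5-fold of sham in M-PDK1KO and 7 in control mice, against 602 and 564 of all 22180 genes. In both genotypes at once 7 of the 33 were at most 0.5-fold, against 1.76% of all genes, namely Slc27a1, Crat, Eci1, Acot2, Acacb, Ucp3 and Plin5. Crat is counted by its probe set of highest mean. A second one had responses of -0.66 in M-PDK1KO and 0.05 in control mice. With every array centred on its myofiber markers, 14 remained called lower and 5 were called higher, and the medians were -0.41 in M-PDK1KO and -0.31 in control mice. Of the 23, 12 were called lower at the same threshold in each of 12 other fits and scalings. These were the 7 just named and Acadm, Echs1, Acaa2, Etfdh and Acot13. With each of the 4 arrays left out in turn, the call was lost every time for Hadh (adjusted p between 0.0555 and 0.11 in limma) and in 3 of 4 fits for Cd36, Cpt2, Acadl, Hadha, Decr1, Etfb and Pnpla2.

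**Figure D1:**
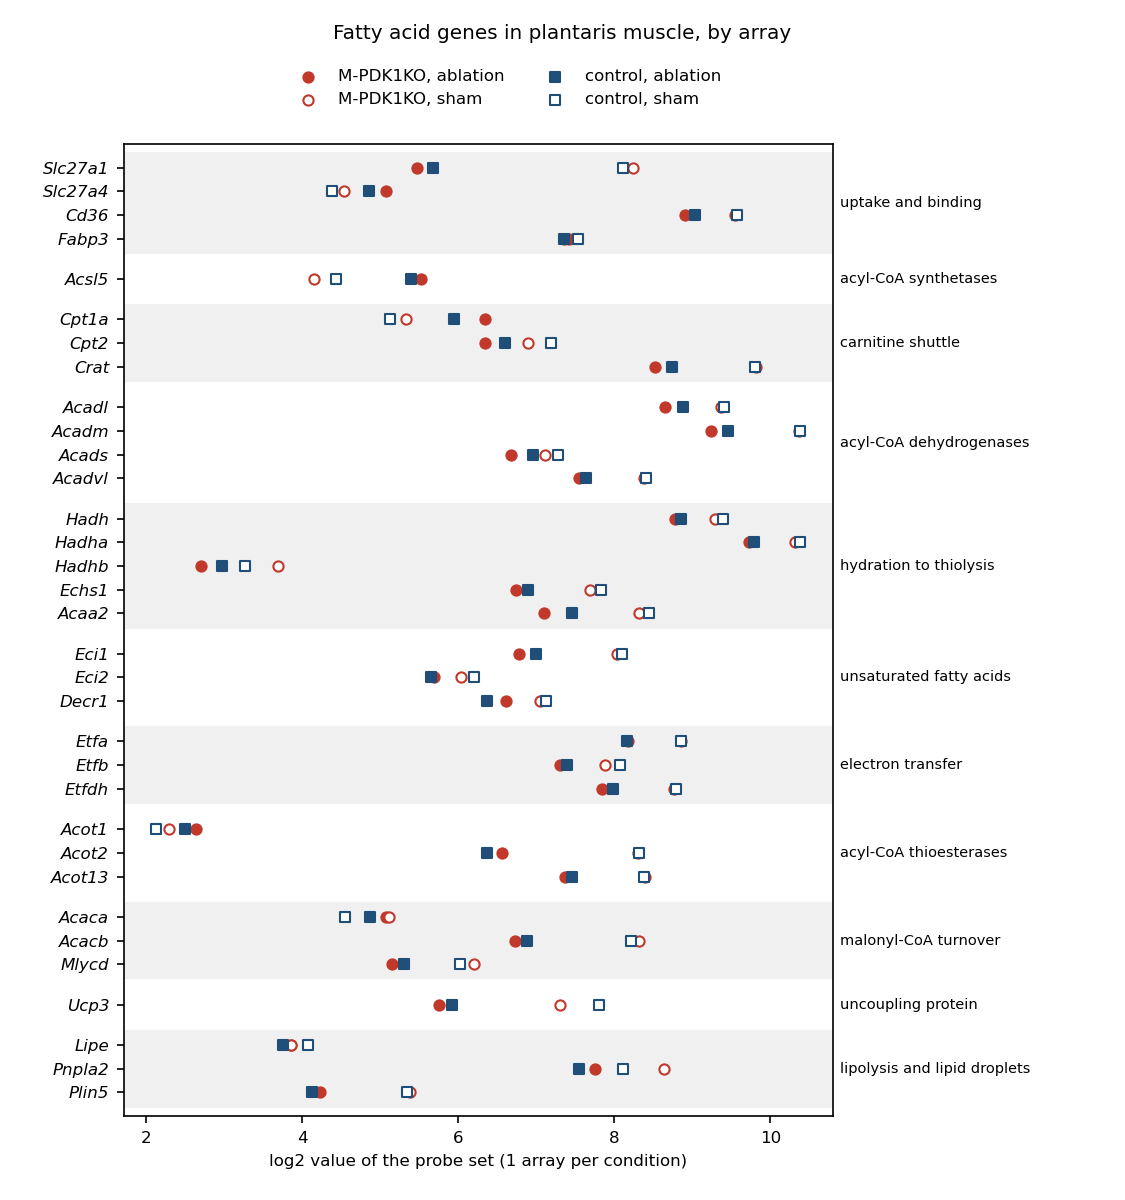
Log2 value of each of the 33 measured fatty acid genes (rows, grouped by role) on each of the 4 arrays, with filled symbols for ablation, open symbols for sham surgery, red circles for M-PDK1KO and blue squares for control mice. For most genes both filled symbols sit to the left of both open symbols, as for Slc27a1, and they sit to the right for Slc27a4, Acsl5, Cpt1a and Acot1. Levels of different genes are not comparable, since each has its own probes.

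To show the sequence before the starts of these genes, RefSeq promoter windows (GRCm38.p6) were searched on both strands within the 250 bases before the start. Windows were found for 30 of the 35 genes. Neither the estrogen-related receptor element TNAAGGTCA nor a DR1, the AGGTCA hexamer repeated with 1 base between, was found in any of their 35 windows, and of all 32851 windows 1.14% and 0.0335% hold them. The hexamer AGGTCA, which is part of both motifs, stands in 7 of the 30 genes (20% of their windows, against 14% of all windows). Of those 7 genes, 6 were called lower (Acadm, Cd36, Ucp3, Echs1, Acadvl and Plin5) and 1 higher (Cpt1a). Of all the genes with a window, 19 were called lower, 3 higher and 7 not called, and Acsl1 was not measured. The share called lower is read against these counts and was not tested. The windows of 3 genes are shown with the hexamer in capitals, on either strand,, because they hold it in genes that moved in opposite directions. They were picked after the values were seen, apart from Cpt1a. The window of Hadha is also shown, because its start lies 273 bases from that of Hadhb on the other strand, so that their windows overlap over 228 bases. It holds no hexamer. A match is a run of letters and was not tested as a binding site.
Ucp3, chr7:100472741-100472990, + strand: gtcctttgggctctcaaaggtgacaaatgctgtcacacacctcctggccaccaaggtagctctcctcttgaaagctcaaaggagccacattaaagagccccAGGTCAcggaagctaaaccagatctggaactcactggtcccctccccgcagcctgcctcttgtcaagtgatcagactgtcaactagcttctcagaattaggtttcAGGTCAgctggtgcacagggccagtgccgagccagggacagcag
Acadvl, chr11:70015429-70015678, - strand: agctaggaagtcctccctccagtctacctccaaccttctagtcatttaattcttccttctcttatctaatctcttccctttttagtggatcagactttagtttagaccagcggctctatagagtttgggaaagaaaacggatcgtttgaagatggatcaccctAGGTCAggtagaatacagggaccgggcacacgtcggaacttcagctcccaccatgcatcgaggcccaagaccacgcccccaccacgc
Cpt1a, chr19:3323051-3323300, + strand: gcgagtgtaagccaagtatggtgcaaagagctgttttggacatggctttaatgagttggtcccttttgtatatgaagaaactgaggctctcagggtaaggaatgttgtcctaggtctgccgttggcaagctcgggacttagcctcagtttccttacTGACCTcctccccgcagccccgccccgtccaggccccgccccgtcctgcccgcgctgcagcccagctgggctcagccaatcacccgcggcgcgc
Hadha, chr5:30154981-30155230, - strand: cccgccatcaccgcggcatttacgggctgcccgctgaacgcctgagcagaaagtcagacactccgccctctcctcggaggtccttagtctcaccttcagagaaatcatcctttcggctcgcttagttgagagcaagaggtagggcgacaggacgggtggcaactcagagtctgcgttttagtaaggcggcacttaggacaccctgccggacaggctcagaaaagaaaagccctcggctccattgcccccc

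Of the 4 genes for uptake and binding, 2 fell, 1 rose and 1 did not pass. Slc27a1, which encodes the fatty acid transport protein FATP1, had log2 values of 5.47 after ablation and 8.24 after sham surgery in M-PDK1KO mice, and of 5.68 after ablation and 8.12 after sham surgery in control mice. Its ablation arrays were 0.147-fold of sham in M-PDK1KO and 0.184-fold in control mice, the lowest of the 33 genes in each genotype, with a mean response of -2.60 ± 0.13 (SE; limma, adjusted p = 0.000764). Slc27a4, which encodes the related FATP4, went the other way. It stood at 5.07 after ablation and 4.54 after sham surgery in M-PDK1KO mice, and at 4.86 after ablation and 4.39 after sham surgery in control mice (mean response 0.51 ± 0.11, adjusted p = 0.0341). This call was lost without each of the 4 arrays in turn, with adjusted p between 0.0651 and 0.179. Cd36, a fatty acid translocase also made by endothelial cells and macrophages, fell, with responses of -0.63 in M-PDK1KO and -0.54 in control mice (limma, adjusted p = 0.0226). Of 10 endothelial markers, 2 were called higher and none lower, against 10.4% and 10.6% of all genes. Both ablation arrays lay above both sham arrays for 6 of the 10 and below for 2. The part of endothelial cells and macrophages in the response of Cd36 was not tested. Fabp3, the heart and muscle fatty acid-binding protein, had values of 7.42 after ablation and 7.36 after sham surgery in M-PDK1KO mice, and of 7.36 after ablation and 7.54 after sham surgery in control mice. These values overlapped, and its mean response was -0.06 ± 0.12 (adjusted p = 0.814).

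Activation and the carnitine shuttle held the other 2 genes that rose. Acsl5, an acyl-CoA synthetase known for its high level in intestine, had values of 5.52 after ablation and 4.15 after sham surgery in M-PDK1KO mice, and of 5.40 after ablation and 4.44 after sham surgery in control mice. It rose, and its ablation arrays were 2.58-fold of sham in M-PDK1KO and 1.94-fold in control mice, with a mean response of 1.16 ± 0.14 (adjusted p = 0.00604), and was called higher in each of the same 12 fits and scalings. Cpt1a, the liver form of carnitine palmitoyltransferase 1, which most tissues other than muscle use for the entry step, had values of 6.34 after ablation and 5.33 after sham surgery in M-PDK1KO mice, and of 5.95 after ablation and 5.13 after sham surgery in control mice. Its mean response was 0.92 ± 0.12 (adjusted p = 0.00706), and the adjusted p was 0.0593 without the M-PDK1KO ablation array and 0.0582 without the control sham array. Macrophage and fibroblast markers rose on the same arrays, and their part in the rise of Slc27a4, Acsl5 and Cpt1a was not tested. Cpt2, which releases the acyl group from carnitine inside the mitochondrion, fell to 0.684-fold in M-PDK1KO and 0.666-fold in control mice (adjusted p = 0.0239). Crat, carnitine acetyltransferase, which buffers acetyl-CoA as acetylcarnitine, had the lowest mean response of this role. Its values were 8.53 after ablation and 9.82 after sham surgery in M-PDK1KO mice, and 8.73 after ablation and 9.80 after sham surgery in control mice, a mean response of -1.18 ± 0.12 (adjusted p = 0.00379). A second Crat probe set of lower signal had responses of -0.66 in M-PDK1KO and 0.05 in control mice.

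**Figure D2:**
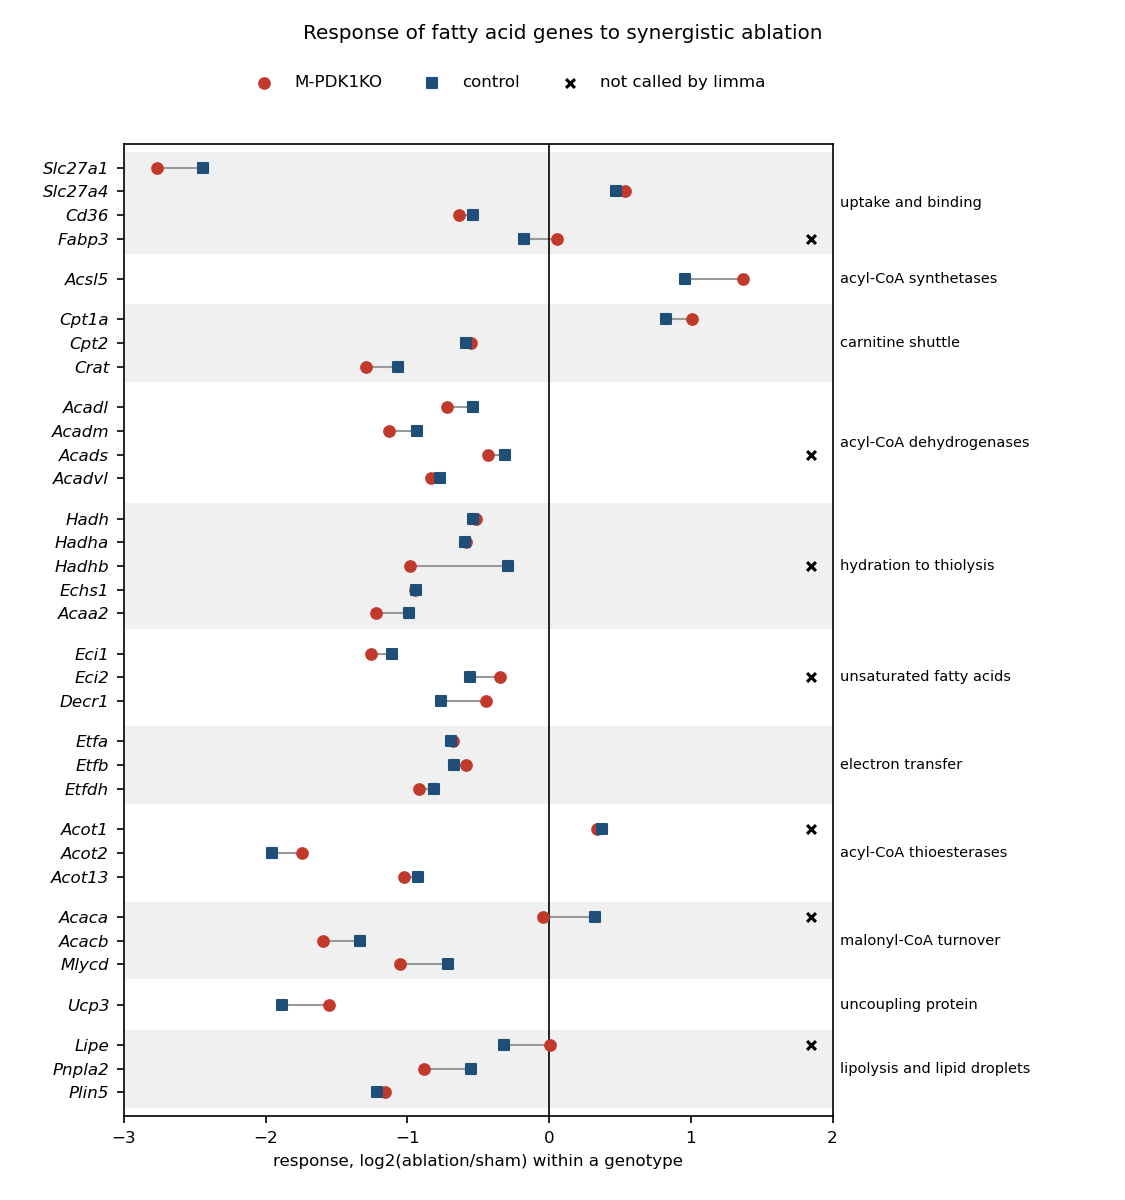
Response to ablation, log2(ablation/sham), of the 33 genes in M-PDK1KO (red circles) and control mice (blue squares), each from 1 array against 1, with genes grouped by role and crosses beside the 7 that limma did not call over both genotypes. Responses ran from -2.76 to 1.37 in M-PDK1KO and from -2.44 to 0.96 in control mice, and 3 genes (Fabp3, Acaca and Lipe) had opposite signs.

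Of the 9 measured enzymes of the β-oxidation spiral, 7 fell, and Acads and Hadhb did not pass. Of the 4 acyl-CoA dehydrogenases, which take the first hydrogen atoms from chains of different length, 3 fell. Acadm, for medium chains, had values of 9.24 after ablation and 10.36 after sham surgery in M-PDK1KO mice, and of 9.45 after ablation and 10.38 after sham surgery in control mice, a mean response of -1.03 ± 0.12 (adjusted p = 0.00515). Acadvl and Acadl, for very long and long chains, fell, with responses of -0.83 and -0.72 in M-PDK1KO and of -0.77 and -0.54 in control mice. Acads, for short chains, had values of 6.68 after ablation and 7.11 after sham surgery in M-PDK1KO mice, and of 6.96 after ablation and 7.27 after sham surgery in control mice. Both its ablation arrays were below both sham arrays, with a mean response of -0.37 ± 0.12 that did not pass (adjusted p = 0.0854).

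Of the 5 genes for the later steps, 4 fell. Acaa2, the thiolase that splits off acetyl-CoA, had values of 7.09 after ablation and 8.32 after sham surgery in M-PDK1KO mice, and of 7.46 after ablation and 8.45 after sham surgery in control mice, a mean response of -1.11 ± 0.12 (adjusted p = 0.00462). Echs1, the short-chain enoyl-CoA hydratase, was at 0.519-fold of sham in M-PDK1KO and 0.521-fold in control mice. Hadh, the short-chain hydroxyacyl-CoA dehydrogenase, and Hadha, the α subunit of the mitochondrial trifunctional protein, fell to 0.701-fold and 0.667-fold in M-PDK1KO mice and to 0.689-fold and 0.663-fold in control mice, and the call of Hadh was lost without any 1 of the 4 arrays. Hadhb encodes the β subunit of the same protein, and its probe set gave values of 2.71 after ablation and 3.69 after sham surgery in M-PDK1KO mice, and of 2.97 after ablation and 3.26 after sham surgery in control mice. These lie about the median of all genes' values, 3.23, at percentile 48.7 by mean value. The Hadhb response was -0.98 in M-PDK1KO and -0.29 in control mice, and the mean of -0.63 ± 0.19 did not pass (adjusted p = 0.0751).

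Of the 3 enzymes that prepare unsaturated chains, 2 fell. Eci1, an enoyl-CoA isomerase, had values of 6.78 after ablation and 8.03 after sham surgery in M-PDK1KO mice, and of 6.99 after ablation and 8.10 after sham surgery in control mice, a mean response of -1.18 ± 0.12 (adjusted p = 0.00332). Decr1, the dienoyl-CoA reductase, fell, with responses of -0.45 in M-PDK1KO and -0.76 in control mice. Eci2, a second isomerase, had values of 5.69 after ablation and 6.03 after sham surgery in M-PDK1KO mice, and of 5.65 after ablation and 6.21 after sham surgery in control mice, and did not pass (mean response -0.45 ± 0.12, adjusted p = 0.0584). All 3 genes of electron transfer fell. Etfdh, which hands the electrons to ubiquinone, had values of 7.85 after ablation and 8.77 after sham surgery in M-PDK1KO mice, and of 7.98 after ablation and 8.79 after sham surgery in control mice (mean response -0.87 ± 0.12, adjusted p = 0.00739). Etfa and Etfb, the subunits of the electron transfer flavoprotein, fell, with responses of -0.68 and -0.59 in M-PDK1KO and of -0.69 and -0.67 in control mice.

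The acyl-CoA thioesterases, which release free fatty acid from coenzyme A, held the second lowest mean response of the 33 genes. Acot2, a mitochondrial thioesterase, had values of 6.56 after ablation and 8.30 after sham surgery in M-PDK1KO mice, and of 6.36 after ablation and 8.32 after sham surgery in control mice. It was at 0.299-fold of sham in M-PDK1KO and 0.258-fold in control mice (mean response -1.85 ± 0.12, adjusted p = 0.00121). Acot1, its cytosolic paralog, lies 21641 bases further on by the RefSeq starts, and gave values of 2.64 after ablation and 2.30 after sham surgery in M-PDK1KO mice, and of 2.50 after ablation and 2.13 after sham surgery in control mice. All 4 of these were below 3.23, the median of all genes' values, and the mean response of 0.36 ± 0.11 did not pass (adjusted p = 0.0886). The coding sequences of the pair are very similar, and how much RNA of one binds probes of the other was not tested. Acot13 fell to 0.493-fold in M-PDK1KO and 0.527-fold in control mice.

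Of the 3 genes of malonyl-CoA turnover, Acacb and Mlycd fell and Acaca did not pass. Acacb encodes acetyl-CoA carboxylase 2, the form at the mitochondrial surface that restrains fatty acid entry in muscle. It had values of 6.72 after ablation and 8.31 after sham surgery in M-PDK1KO mice, and of 6.88 after ablation and 8.22 after sham surgery in control mice, a mean response of -1.46 ± 0.13 (adjusted p = 0.00244). Acaca, the cytosolic acetyl-CoA carboxylase 1 of fatty acid synthesis, had values of 5.07 after ablation and 5.11 after sham surgery in M-PDK1KO mice, and of 4.87 after ablation and 4.55 after sham surgery in control mice. The ablation and sham arrays overlapped, and the mean response was 0.14 ± 0.14 (adjusted p = 0.565). Mlycd, malonyl-CoA decarboxylase, fell, with responses of -1.05 in M-PDK1KO and -0.71 in control mice (adjusted p = 0.0112).

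Ucp3, an uncoupling protein of the inner mitochondrial membrane in muscle, had values of 5.76 after ablation and 7.31 after sham surgery in M-PDK1KO mice, and of 5.92 after ablation and 7.80 after sham surgery in control mice. Its ablation arrays were 0.342-fold of sham in M-PDK1KO and 0.271-fold in control mice (mean response -1.72 ± 0.13, adjusted p = 0.00186). Of the genes of lipolysis and lipid droplets, 2 of 3 fell. Plin5, a perilipin that holds lipid droplets against mitochondria, had values of 4.23 after ablation and 5.39 after sham surgery in M-PDK1KO mice, and of 4.13 after ablation and 5.34 after sham surgery in control mice (mean response -1.19 ± 0.11, adjusted p = 0.00304). Pnpla2, adipose triglyceride lipase, had values of 7.75 after ablation and 8.63 after sham surgery in M-PDK1KO mice, and of 7.55 after ablation and 8.11 after sham surgery in control mice, and fell with a mean response of -0.72 ± 0.13 (adjusted p = 0.0196). Lipe, hormone-sensitive lipase, had values of 3.86 after ablation and 3.85 after sham surgery in M-PDK1KO mice, and of 3.75 after ablation and 4.07 after sham surgery in control mice, which overlapped (mean response -0.16 ± 0.13, adjusted p = 0.508). Adipocytes also make Lipe, Pnpla2 and Cd36, and 6 of 9 measured adipocyte markers fell, with medians of -0.74 in M-PDK1KO and -0.75 in control mice. For 8 of the 9 both ablation arrays lay below both sham arrays, and for Fabp4 both lay above. Fabp4 was not called, with responses of 0.14 in M-PDK1KO and 0.36 in control mice. Lpl had values of 8.65 after ablation and 10.23 after sham surgery in M-PDK1KO mice. In control mice Lpl had 8.71 after ablation and 9.89 after sham surgery. Fabp4 and Lpl, at percentiles 98.9 and 98.8 by mean value, weigh heavily in the linear sums that follow. Lpl, Fabp4 and Plin4 are also counted in other lists below. The adipocyte markers summed on the linear scale to 1317 after ablation and 2326 after sham surgery in M-PDK1KO mice, and to 1404 after ablation and 2003 after sham surgery in control mice. Their part in the falls was not tested.

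None of the 33 genes passed the test for genotype. The difference of response, M-PDK1KO minus control, had a median of -0.04 over the 33 genes, against 0.01 over all genes, and a median size of 0.19 in both. It was negative for 18 of the 33. These differences have no test, since each condition has 1 array. The largest was that of Hadhb, at -0.69, which ranked 962 by size among all genes, followed by Acsl5 at 0.41 and Acaca at -0.36. In limma, with surgery as a term, no gene of 22180 (0%) was called for genotype, and Pdpk1 was not called either. Without adjustment, 2 of the 33 genes had p under 0.05, as had 5.45% of all genes. They were Acaca, with a genotype difference, log2(M-PDK1KO/control), averaging 0.38 ± 0.14 over both surgeries (limma, adjusted p = 0.870), and Pnpla2, with 0.36 ± 0.13 (adjusted p = 0.870). For both the difference was larger after sham surgery, at 0.56 for Acaca and 0.53 for Pnpla2, than after ablation, at 0.20 for each. Ucp3 had the lowest, at -0.33 ± 0.13 (adjusted p = 0.870), with -0.16 after ablation and -0.49 after sham surgery. After ablation, 20 of the 33 genes were lower in M-PDK1KO than in control mice, with a median of -0.09, and after sham surgery likewise 20 of 33, with a median of -0.02. Of all 22180 genes, 10978 were lower in M-PDK1KO after ablation and 11262 after sham surgery, and the difference from these shares was not tested.

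**Figure D3:**
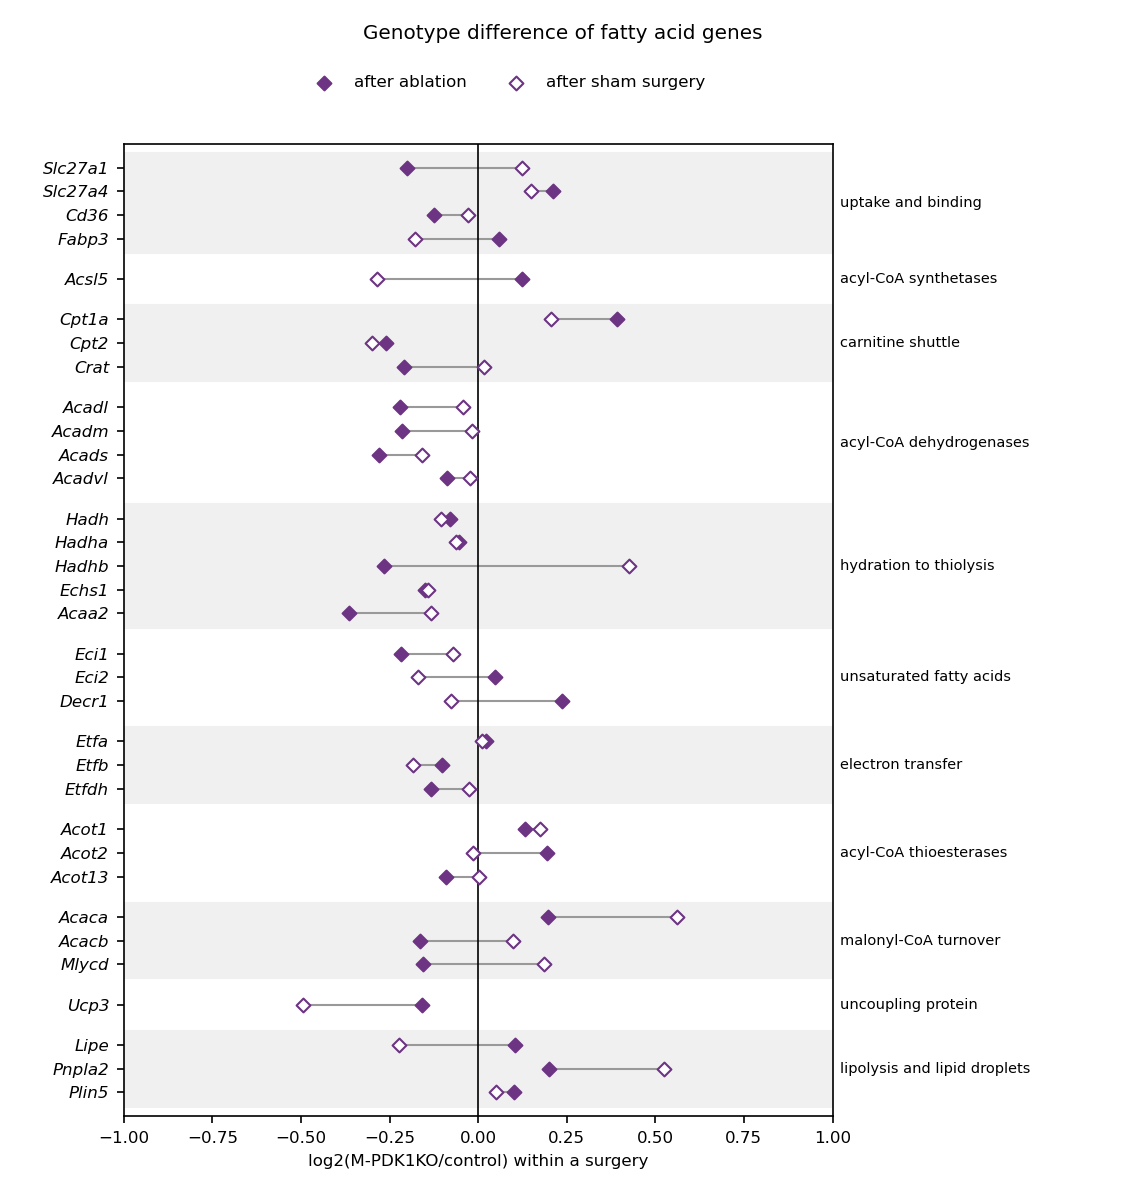
Genotype difference, log2(M-PDK1KO/control), of the 33 genes after ablation (filled diamonds) and after sham surgery (open diamonds), each from 1 array against 1. Values ran from -0.37 to 0.39 after ablation and from -0.49 to 0.56 after sham surgery, and none was called by limma.

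Of 38 further genes of fatty acid transport and oxidation in mitochondria and cytosol, 15 fell and 3 rose, with medians of -0.33 in M-PDK1KO and -0.30 in control mice. Among them Lpl, lipoprotein lipase, and Acss1, the mitochondrial acetyl-CoA synthetase, fell with mean responses of -1.38 and -1.31, while Fabp5, a fatty acid-binding protein that macrophages also express, rose with 1.29. Of 20 genes of peroxisomal oxidation, 8 fell and 1 rose. Abcd2, a peroxisomal transporter of very long-chain fatty acids, had a mean response of -2.01, and Pex11a, a peroxisome division protein, and Phyh, an enzyme of branched-chain fatty acids, had -0.93 and -0.92. Of 22 genes of lipid droplets and triglyceride, 10 fell and 1 rose. In this list Plin4, a perilipin, had a mean response of -2.39, Lpin1, a phosphatidate phosphatase, -1.65, and Fitm2, a protein of droplet formation, -0.97. Fatty acid synthesis and desaturation was split, with 5 of 14 genes higher and 4 lower. Acly, ATP citrate lyase, and Elovl1, an elongase, rose with mean responses of 1.02 and 0.96, whereas Me1, malic enzyme, fell with -1.62. Some genes stand in more than 1 of these lists.

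A further list held transcription factors and coactivators known to drive fatty acid oxidation genes, together with their best known responsive genes. Of these 24 genes, 14 fell and 1 rose, with medians of -0.51 in M-PDK1KO and -0.52 in control mice. The regulators were not counted apart from the responsive genes. Ppara, the nuclear receptor PPARα, had values of 4.17 after ablation and 5.82 after sham surgery in M-PDK1KO mice, and of 4.16 after ablation and 6.10 after sham surgery in control mice (mean response -1.79 ± 0.13, adjusted p = 0.00153). Klf15, a transcription factor of muscle lipid and amino acid use, fell, with responses of -1.92 in M-PDK1KO and -2.16 in control mice. Angptl4, a PPAR-responsive inhibitor of lipoprotein lipase, was the only one of the 24 called higher, with values of 6.04 after ablation and 3.90 after sham surgery in M-PDK1KO mice, and of 6.05 after ablation and 4.16 after sham surgery in control mice (mean response 2.01 ± 0.13, adjusted p = 0.00110). Ppargc1a, which encodes the coactivator PGC-1α, and Rxrg, a partner receptor of the PPARs, were picked after their values were seen. They fell, with responses of -1.41 and -1.79 in M-PDK1KO and of -1.34 and -1.76 in control mice.

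Most genes of the citric acid cycle and of branched-chain amino acid catabolism fell on the same arrays. Of 18 citric acid cycle genes, 16 fell, with medians of -0.73 in M-PDK1KO and -0.62 in control mice, and Suclg1, Idh3g and Idh3a had mean responses of -1.01, -0.90 and -0.82. Of 20 genes of branched-chain amino acid catabolism, 18 fell, with medians of -1.02 and -0.98, led by Bckdhb, Aldh6a1 and Ppm1k at mean responses of -1.59, -1.47 and -1.40. Of 6 genes listed for ketone body use, 4 fell, among them Acat1 and the monocarboxylate transporter genes Slc16a3 and Slc16a1. Of 14 glycolysis genes, 5 fell and 3 rose, with medians of -0.33 and -0.26, and Ldhb, Pfkm and Pgam2 had mean responses of -1.07, -0.83 and -0.80.  The differences between lists were not tested.

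**Figure D4:**
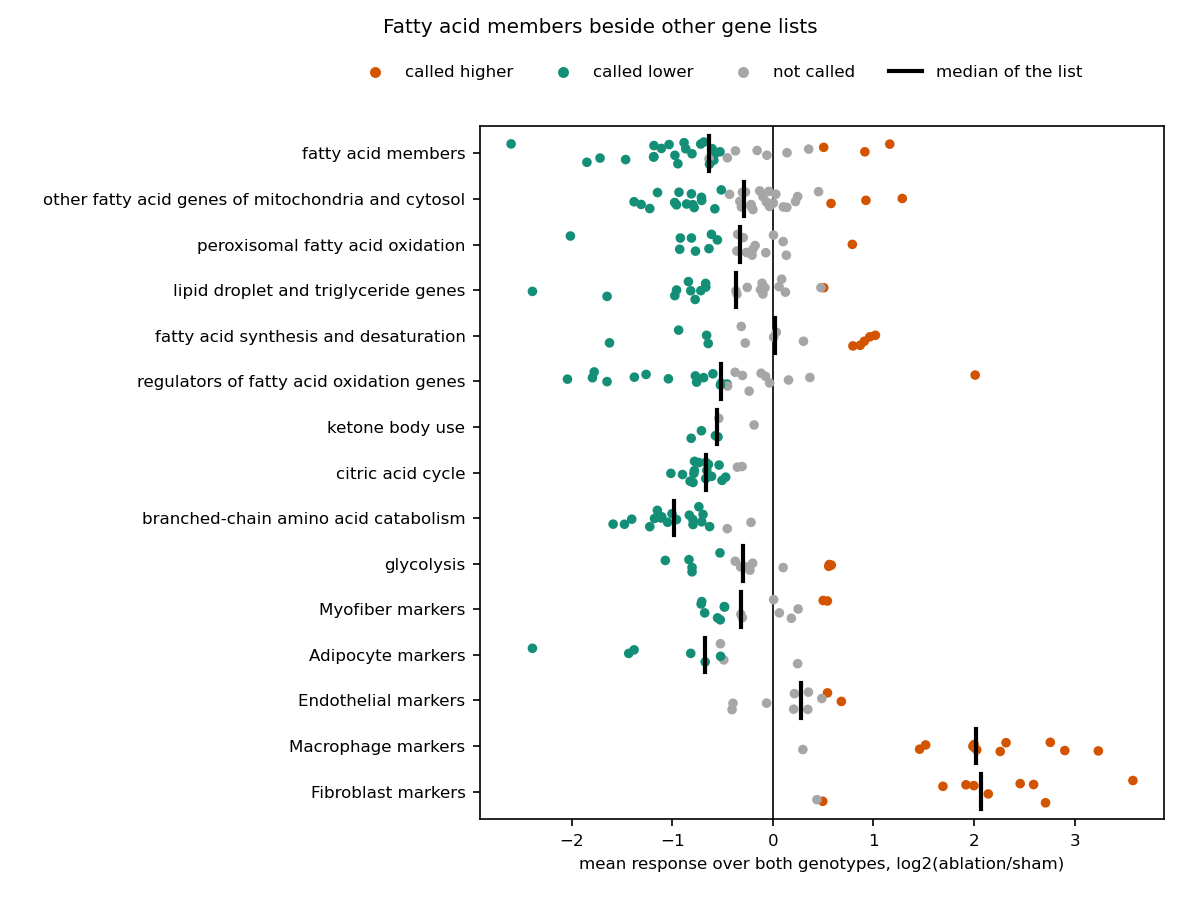
Mean response to ablation over both genotypes for each gene (points) of the fatty acid members and of other gene lists and cell type markers (rows), with black bars for list medians, green for genes called lower, orange for genes called higher and gray for genes not called. The fatty acid members have 23 green and 3 orange points, and macrophage and fibroblast markers lie mostly above 1.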

How the data were processed

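RNA of plantaris muscle was hybridized to Affymetrix Mouse Gene 2.0 ST arrays. The authors deposited log2 values, 1 per probe set and array. Their log2 scale was read from their range of 0.70 to 13.2. The methods name Transcriptome Viewer, and the background correction, summarisation and normalization between arrays are not stated. Of 41345 probe sets, 23521 named exactly 1 gene, and those naming several genes (1820) or none (16004) were left out. Each of 22180 genes was represented by its probe set of highest mean. The model value ~ genotype + surgery was fitted to all genes with limma 3.58.1 (R 4.3.3), with Benjamini-Hochberg adjustment over all genes and 1 residual degree of freedom, and was checked on simulated arrays. Samples within a condition are single, so p-values rest on the distance between the responses of the genotypes, moderated by limma with 4.22 prior degrees of freedom estimated over all genes, and hold no spread between mice of a condition. All members are accounted for, and named with all 4 values are the largest mean response of each role, all genes called higher or not called, the 3 largest genotype differences of response and of level and the measured members of fixed isoform pairs. Of each other list, the 3 called genes with the largest mean responses are named. The members and the gene lists were chosen with earlier results of these data known. Alternatives were quantile normalization, centring arrays on their median or on myofiber markers, averaging probe sets per gene, fitting all probe sets, a filter on low values, limma with a trend, the tested term alone, other thresholds and leaving out each array. Figures were made with Python 3.11.15 and matplotlib 3.10.9.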

Additional observations from a re-analysis of the deposited data

Results flagged for a closer look

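Fabp3, Acaca and Lipe had responses to ablation of opposite sign in the genotypes, which flagged them, and the differences were not tested since each condition has 1 array. The difference of response, M-PDK1KO minus control, was 0.24 for Fabp3, -0.36 for Acaca and 0.33 for Lipe. Each lies near the SD of this difference over all genes, 0.32, and none of the 3 genes was called for ablation.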

How the results depend on the processing

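Of the 23 genes called lower, 12 were also called when all probe sets were fitted together, 13 had an adjusted p under 0.01, 7 were at most 0.5-fold in both genotypes, and 14 were called with the arrays centred on the myofiber markers, an alternative chosen after seeing the data that called 5 higher. Leaving out each array in turn, with 1 term fitted at a time, gave 16 to 18 genes lower, 1 to 2 higher and 0 for genotype, the single array of a condition being assumed to vary like the others. In these fits 15 of the 23 were called each time, and the others (Cd36, Cpt2, Acadl, Hadh, Hadha, Decr1, Etfb and Pnpla2) missed in 3 or, for Hadh, 4 of the 4 fits, with adjusted p up to 0.221. The median response was -0.56 in M-PDK1KO mice with quantile normalization, and -0.41 in M-PDK1KO and -0.31 in control mice with the myofiber centring. Sign changes were seen for Fabp3 (0.067 with quantile normalization, 0.27 with myofiber centring and -0.15 to 0.030 with 1 array left out, the higher without the control sham array), Acaca (-0.14 to 0.42 with 1 array left out, the lower without that same array) and Lipe (0.17 with myofiber centring). Of these, Acaca was called higher with myofiber centring (0.47). The cause was not tested. Of 395 values of single genes under the 12 alternatives, 55 lost and 13 gained a call. The model with both terms already pairs the surgeries by genotype, and it tests the mean response over both genotypes and not that of either. No further pairing was possible, because each condition has 1 array. Genes of low signal, such as Hadhb and Acot1, are limited by signal over background.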
